A study of Mus musculus with 9 samples.

Results

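The transcription factors that steer blood progenitors towards myeloid fates were compared between NA MPs and WT MPs. The group holds 10 genes given by name, Spi1, Runx1, Runx2, Runx3, Cbfb, Myb, Irf8, Irf4, Gfi1 and Zeb2, and all 10 were found among the 37980 genes of the count file and passed the expression filter. NA MPs (4 samples) were Tdtomato+ myeloid progenitors (Lin-ckit+Sca1-) that arose in irradiated recipients from transplanted multipotent progenitors (MPPs) with the Nup98-Hoxa10hd fusion gene (NA), which joins a nuclear pore gene to the homeodomain of Hoxa10. The fusion was placed in the Rosa26 locus behind a stop cassette that Vav-Cre, active across the blood system, removes, so every NA cell carried both transgenes. WT MPs (5 samples) had the same surface phenotype, came from recipients of WT MPPs and were sorted as CD45.2+ cells. In the study's methods recipients are CD45.2+ and WT donors CD45.1+, and by these types a CD45.2+ sort would not take WT donor cells. The methods nevertheless describe WT MPs as CD45.2+ cells of the control group, so their origin is not settled by the sources used here. The study also reports that WT donor cells in blood declined after transplantation until none could be detected. The MPPs of both groups were injected together with bone marrow helper cells, whose CD45 type is not given. If WT MPs were not WT donor cells, genotype and graft origin cannot be told apart in any difference between the groups. All mice were of the C57BL/6 strain. Cells were taken 3 months after transplantation by the labels and 4 months by the methods. How many mice went into a sample is not given in the sources used here, so p-values measure the spread between these samples.

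These factors form a network. Spi1 encodes PU.1, an ETS factor needed for monocytes, granulocytes and B cells, and Runx proteins bind DNA together with their shared partner Cbfb. Irf8 and Irf4 are interferon regulatory factors that bind DNA jointly with PU.1, Irf8 favouring monocytes and dendritic cells and Irf4 acting in lymphocytes and plasma cells. Gfi1 is a repressor that favours granulocytes, Myb keeps progenitors proliferating, and Zeb2 is an E-box binding repressor needed in several myeloid and dendritic lineages.

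A promoter window of each of the 3 Runx genes carries the same short arrangement of bases, which is printed here for that reason. All 3 genes rose in NA MPs in the main fit, Runx3 not past the threshold with an offset for GC content and length, as given below. Any part of these bases in the rises was not tested. In the promoter windows of RefSeq (GRCm38.p6, from 250 bases before to 50 bases from the start of transcription on), 9 of the 10 factors were matched, with 16 windows. The capitals mark the core letters of the Runx motif, TGTGGT, here read as ACCACA because it lies on the opposite strand. Each stretch of 30 bases is written 5′ to 3′ on the strand of its gene.
Runx1 (chr16:92826025-92826054, minus strand): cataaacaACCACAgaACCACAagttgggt
Runx2 (chr17:44814583-44814612, minus strand): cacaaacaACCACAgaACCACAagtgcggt
Runx3 (chr4:135120503-135120532, plus strand): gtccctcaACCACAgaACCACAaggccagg
In each of the 3 stretches the matches started 8 bases apart with the letters ga between them. They began at positions 29 and 37 after the start in Runx1, at 24 and 32 in Runx2, and at -134 and -126 in Runx3. The Runx2 window held a further match on the same strand, before the start and outside the stretch. Runx1 and Runx3 each had another promoter window, and it held no match to the Runx motif. Of the 32851 promoter windows of the table, 5506 (16.8%) held the motif at least once on either strand, and 7 (0.0213%) held 2 matches on the same strand 8 bases apart, whatever the letters between them. Besides the Runx genes these were Gm12236, Gm15462, Olfr24 and Gm16225, whose window lies across that of Runx3 on the other strand. The spacing was chosen after the sequences were seen, and a match is a run of letters, not a measured binding site.

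Irf4, which differed most between the groups, has a single match to the 6 motifs searched, the PU.1 core GAGGAA on the minus strand, beginning 19 bases before the start.
Irf4 (chr13:30749202-30749231, plus strand): ggctctataaagTTCCTCtttctcacctca
The PU.1 core was found in 28.3% of all windows and in 4 of the 9 matched factors (Cbfb, Irf4, Runx1 and Zeb2). The Myb core TAACNG was found in 23.3% of windows and in Irf8 and Runx1, the Zeb core CACCTG in 20.2% and in Gfi1, Irf8, Runx1 and Runx3, the Gfi1 core AAATCA in 14% and in Irf8 alone, and the IRF motif, a pair of GAAA cores with 2 bases between them, in 3.4% and in none of the 9.

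Of the 10 factors, 6 passed the threshold in NA MPs compared with WT MPs, 5 higher (Spi1, Runx1, Runx2, Runx3 and Irf4) and Myb lower. Over all 11966 tested genes 34.2% passed, 17.9% higher and 16.3% lower. The same 6 factors had no overlap between the samples of the groups, which 26.3% of tested genes showed. Irf4 rose 9.41-fold, whereas the other rises were between 9.58% and 14.7% and Myb fell by 5.92%. Values are expected counts rounded, scaled by edgeR's TMM method and given as normalized counts (mean ± SD). The test was the quasi-likelihood test of edgeR, adjusted by Benjamini-Hochberg over all tested genes, with a threshold of 0.05 on the adjusted p. Errors of log2 fold changes are standard errors (SE). Totals ran from 6602851 to 6734284 counts per sample, where 3 counts, the limit set by a count of 0, correspond to 0.445 to 0.454 CPM. This limit covers counting error only.

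**Figure D1:**
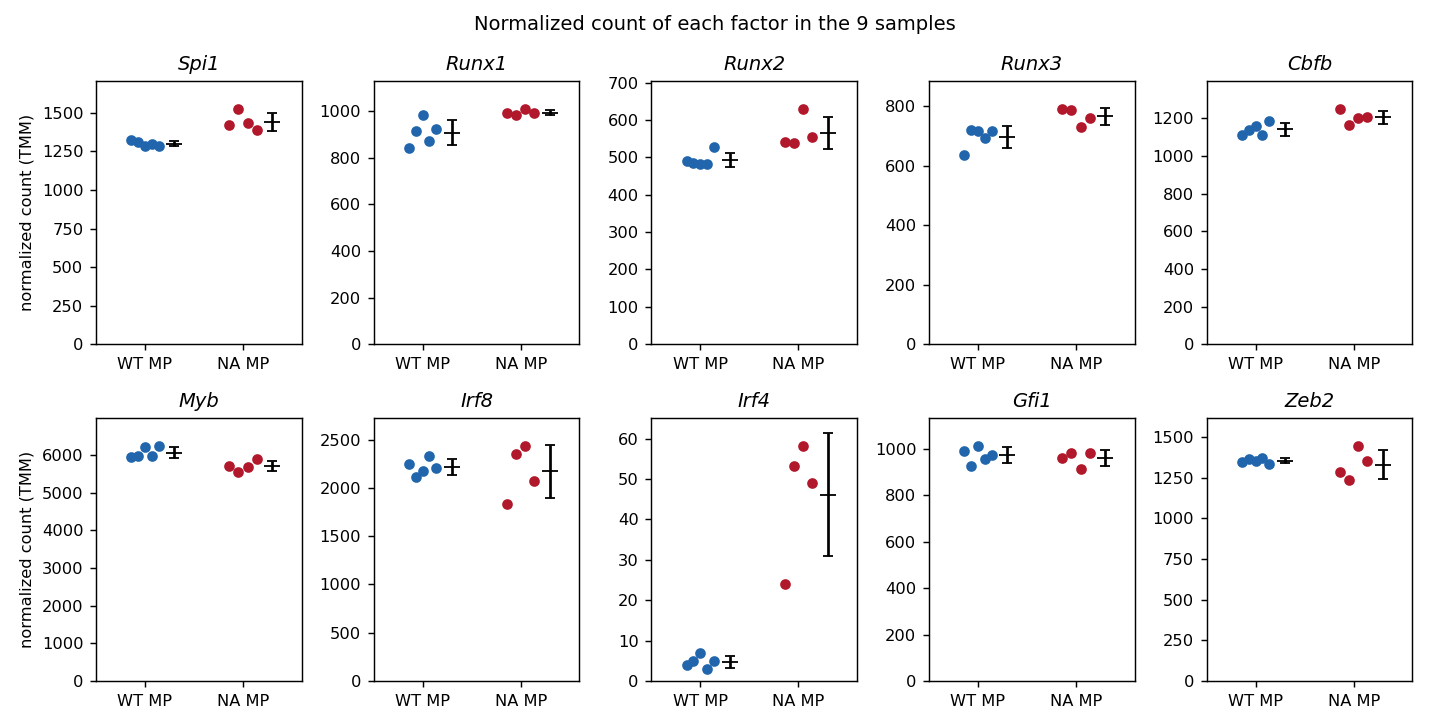
Normalized count (TMM, linear axes from 0) of each factor in the 5 WT MP samples (blue) and 4 NA MP samples (red), with the mean and SD in black. Irf4 stands between 24.1 and 58.2 in NA MPs and at 6.99 or less in WT MPs, while the other 9 factors differ by less than 15% between the group means.

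Levels per length set the frame for these changes. On the scale of normalized counts per kilobase of exon sequence, Myb was the highest factor in WT MPs (678 ± 16.4), followed by Spi1 (482 ± 6.36), Cbfb (328 ± 9.36), Irf8 (314 ± 11.4), Gfi1 (305 ± 10.6), Runx3 (139 ± 7.15), Runx1 (75.4 ± 4.44), Zeb2 (67.9 ± 0.728), Runx2 (55.8 ± 2.22) and Irf4 (0.977 ± 0.302). NA MPs had the same order, from Myb at 638 ± 15.3 and Spi1 at 535 ± 21.3 to Irf4 at 9.41 ± 3.09. In both groups the samples of Cbfb overlapped those of Irf8 and the samples of Irf8 those of Gfi1, so these neighbours cannot be ordered. In NA MPs the ranges of Zeb2 and Runx2 overlapped as well, although Zeb2 was the higher within each sample. Lengths are the union of all annotated exons, which lowers the value of genes with many alternative exons such as Zeb2 (29 transcripts, 19942 bases).

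Spi1 (ENSMUSG00000002111, chr2:91082390-91115756) had normalized counts of 1422, 1523, 1431 and 1390 in NA MPs. The WT MP samples had 1325, 1309, 1287, 1296 and 1284. Every NA MP sample lay above every WT MP sample, and replicate 2 was the highest. The log2 fold change was 0.15 (SE 0.034, edgeR adjusted p = 0.000391). Leaving out each sample in turn kept it between 0.12 and 0.17. With an offset for GC content and length it was 0.091 (edgeR adjusted p = 0.0165).

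The Runx genes encode the DNA-binding subunits of core binding factor, with Runx1 required for the emergence of blood stem cells, Runx2 for bone and Runx3 for several lymphocyte programmes. Runx1 (ENSMUSG00000022952, chr16:92601466-92826149) had 992, 982, 1008 and 993 normalized counts in NA MPs and 841, 916, 981, 872 and 924 in WT MPs. The NA MP samples were nearly level and the gap to the highest WT MP sample, replicate 3, was narrow. This was a log2 fold change of 0.13 (SE 0.039, edgeR adjusted p = 0.00717). Runx2 (ENSMUSG00000039153, chr17:44495987-44814797) had 541, 538, 629 and 555 normalized counts in NA MPs and 489, 486, 481, 483 and 528 in WT MPs. Replicate 3 was the highest of the NA MPs and replicate 5 of the WT MPs. The difference amounted to 0.20 on the log2 scale (SE 0.050, edgeR adjusted p = 0.00139). Runx3 (ENSMUSG00000070691, chr4:135120652-135177990) had 789, 786, 728 and 761 normalized counts in NA MPs and 635, 718, 718, 692 and 716 in WT MPs. The lowest NA MP sample, replicate 3, was just above the highest WT MP samples. Its log2 fold change of 0.14 (SE 0.043, edgeR adjusted p = 0.00967) did not pass with the offset for GC content and length (0.046, edgeR adjusted p = 0.438), in contrast to Runx1 (0.17) and Runx2 (0.20).

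Cbfb (ENSMUSG00000031885, chr8:105170674-105217989), the non-DNA-binding subunit shared by all Runx proteins, had 1249, 1166, 1200 and 1206 normalized counts in NA MPs and 1111, 1138, 1159, 1113 and 1188 in WT MPs. The groups overlapped. The log2 fold change was 0.08 (SE 0.035, edgeR adjusted p = 0.0812), and it passed with the offset for GC content and length (0.11, edgeR adjusted p = 0.00475) and without NA MP replicate 2 (0.094, edgeR adjusted p = 0.0479).

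Within the Runx family the proportions were alike in both groups. Of the summed Runx level per kilobase, Runx3 made up 51.1% ± 1.86 in NA MPs and 51.4% ± 0.792 in WT MPs, Runx1 27.6% ± 0.306 and 27.9% ± 0.751, and Runx2 21.4% ± 1.6 and 20.7% ± 0.996. The summed level was between 297 and 301 normalized counts per kilobase in NA MPs and between 252 and 280 in WT MPs. Cbfb stood at 1.16 ± 0.0304 times the summed Runx level in NA MPs and at 1.21 ± 0.0311 times in WT MPs. These shares and sums were chosen after the values were seen and are given without a test.

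**Figure D2:**
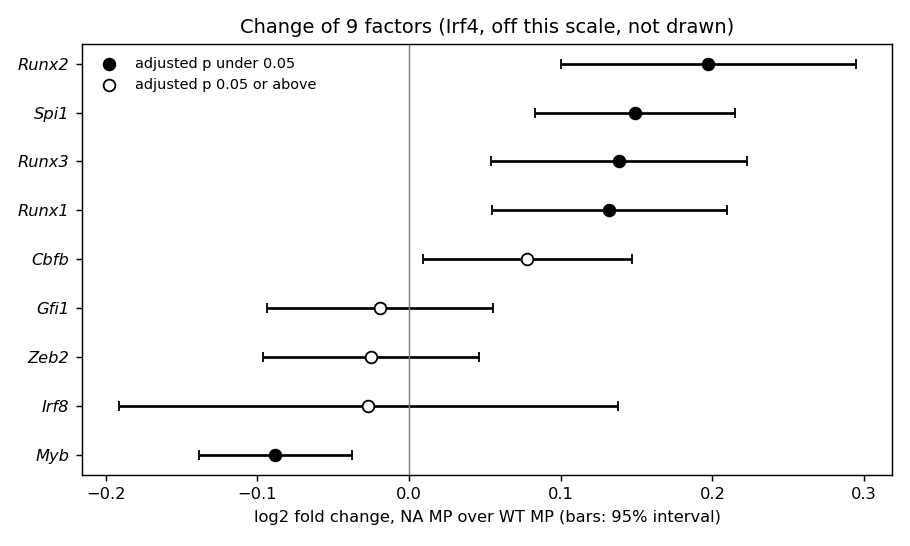
Log2 fold change of NA MPs over WT MPs for 9 factors with a 95% interval (not adjusted for the number of genes). Filled points pass an adjusted p of 0.05. Spi1 and the Runx genes lie above 0 and Myb below it, while the points of Irf8, Zeb2 and Gfi1 lie close to 0, and Irf4 at 3.23 is off this scale.

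Myb (ENSMUSG00000019982, chr10:21124935-21160984) was the most abundant of the factors and the one that fell. It had 5700, 5551, 5671 and 5882 normalized counts in NA MPs, and 5932, 5966, 6201, 5962 and 6237 in WT MPs. No NA MP sample reached the lowest WT MP sample, although NA MP replicate 4 came close. Its log2 fold change was -0.09 (SE 0.026, edgeR adjusted p = 0.00580). With each sample left out the value stayed between -0.10 and -0.08, all past the threshold, but with the offset for GC content and length it was -0.037 (edgeR adjusted p = 0.202).

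Irf8 (ENSMUSG00000041515, chr8:120736358-120756694) had 1833, 2356, 2436 and 2074 normalized counts in NA MPs, and 2252, 2115, 2174, 2328 and 2210 in WT MPs. The NA MP samples spread on both sides of the WT MP samples, with a coefficient of variation of 12.7% against 3.63%. The log2 fold change was -0.03 (SE 0.084, 95% interval -0.19 to 0.14, edgeR adjusted p = 0.848), and without NA MP replicate 1, the lowest, it was 0.047. Zeb2 (ENSMUSG00000026872, chr2:44983632-45117395) had 1287, 1237, 1445 and 1353 normalized counts in NA MPs and 1347, 1364, 1353, 1371 and 1334 in WT MPs. The NA MP samples again spread to either side of a tight WT MP group, with a coefficient of variation of 6.77% against 1.07%. For Zeb2 the log2 fold change was -0.02 (SE 0.036, 95% interval -0.096 to 0.046, edgeR adjusted p = 0.643). With the offset for GC content and length the sign of Zeb2 turned (0.037, edgeR adjusted p = 0.457).

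Gfi1 (ENSMUSG00000029275, chr5:107716657-107726036) had 963, 982, 912 and 984 normalized counts in NA MPs and 993, 925, 1013, 958 and 975 in WT MPs. The groups overlapped throughout. Its log2 fold change was -0.02 (SE 0.038, 95% interval -0.093 to 0.056, edgeR adjusted p = 0.746), and it passed with the offset for GC content and length (-0.092, edgeR adjusted p = 0.0415).

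Irf4 (ENSMUSG00000021356, chr13:30749226-30766976) had 24.1, 53.1, 58.2 and 49.1 normalized counts in NA MPs. The WT MP samples had 3.99, 4.99, 6.99, 2.99 and 4.99, close to the limit of detection. Each NA MP sample stood well above the WT MP samples, and NA MP replicate 1 was lower than the other NA MPs. The log2 fold change was 3.23 (SE 0.28, edgeR adjusted p = 5.97e-13), between 3.10 and 3.45 with each sample left out. Only 0.493% of tested genes had a larger absolute log2 fold change. Even so Irf4 stayed far under Irf8, at 2.99 ± 0.741 Irf4 per 100 Irf8 on the scale of counts per kilobase in NA MPs and at 0.313 ± 0.104 in WT MPs.

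All 10 progenitor markers were present in every sample, and their summed level, most of it Mpo, ran from 25005 to 27438 CPM in NA MPs and from 24286 to 25267 CPM in WT MPs. Of these 10 markers 7 were higher and 1, Fcgr3 (-0.57), lower in NA MPs. This and the following counts of markers are to be read against all tested genes, of which 17.9% were higher and 16.3% lower. Markers of other cells moved with the groups as well. Of 12 B lineage markers 11 were tested and all 11 were higher in NA MPs, with a summed level of 168, 317, 315 and 231 CPM in NA MP replicates 1 to 4 and of 44.2 to 46.8 CPM in WT MPs. NA MP replicate 1, the lowest in Irf4, was also the lowest in B lineage markers. Ms4a1, a marker of mature B cells, had at most 1 count in any sample. The lineage antibodies of the MP stain in the study's methods include B220, which removes cells with this B lineage antigen. The part of B lineage cells in the level of Irf4 was not tested, and in sorted bulk samples a different number of cells of a type and a different RNA level per cell cannot be told apart.

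**Figure D3:**
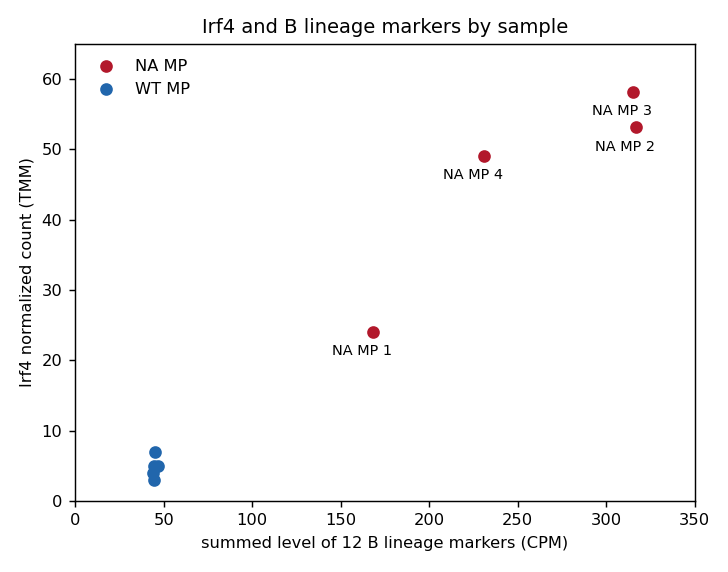
Normalized count of Irf4 against the summed level of 12 B lineage markers in CPM for the 4 NA MP samples (red, labelled) and 5 WT MP samples (blue). WT MPs lie together at 44.2 to 46.8 CPM and at most 6.99 counts of Irf4, and NA MP replicate 1 lies between them and the other NA MPs on both axes.

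The other lists stand beside the same shares, 17.9% of all tested genes higher and 16.3% lower. Among them, 11 of 12 erythroid markers were lower in NA MPs (summed level 940 to 1193 CPM against 1759 to 1938 CPM). Of 8 mast cell and basophil markers 6 were higher and 1 lower (755 to 877 CPM against 570 to 602 CPM). Of 10 monocyte markers 5 were higher and 2 lower (1736 to 2045 CPM against 1618 to 1747 CPM), and of 10 neutrophil markers 4 were higher and 2 lower (655 to 1000.3 CPM against 590 to 671 CPM). Of 12 dendritic cell markers 6 were tested, 3 higher and 1, Zbtb46 (-1.31), lower (223 to 244 CPM against 179 to 196 CPM). Most of this sum was Tcf4, Flt3 and Bst2, and Siglech had at most 1 count in any sample. Of 10 T and NK markers 3 were tested and all 3 were higher (308 to 329 CPM against 253 to 276 CPM). Nearly all of that sum was Nkg7 (log2 fold change 0.17), while Cd3e and Cd3g were at 0 in all 9 samples. Lck and Thy1, the other tested markers of this list, rose far more, with log2 fold changes of 2.25 and 2.85. Neither had an overlap between the groups. All 13 tested of 14 immediate early genes were higher (2048 to 4499 CPM against 444 to 941 CPM). The part of these shifts in the smaller differences of the factors, and in the ratios and related genes given next, was not tested.

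The Irf4 profile over the 9 samples was most like those of Vpreb1, Vpreb3 and ENSMUSG00000081448 (0.27, 0.30 and 0.28 on the log2 scale). The measure was the root mean square difference of log2 CPM values centred on each gene. Vpreb1 encodes a surrogate light chain component of pre-B cells, and both Vpreb genes are among the B lineage markers. The log2 fold change of Vpreb1 was 3.23 and that of Vpreb3 3.48. Closest to Runx2 were Slc12a7, Eif1 and Panx1 (0.047, 0.047 and 0.049 on the log2 scale), with log2 fold changes of 0.27, 0.19 and 0.20. Closest to Spi1 were Aprt, Man2b2 and Sash3 (0.018, 0.021 and 0.022 on the log2 scale), with log2 fold changes of 0.14, 0.13 and 0.15.

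Ratios of opposing or cooperating factors were then taken within each library, where scaling between libraries plays no part. Of 9 pairs, 4 differed between the groups without overlap, each with the smallest p that 4 against 5 samples allow (exact two-sided permutation test, p = 0.0159, Benjamini-Hochberg adjusted over the 9 pairs p = 0.0357). Of single tested genes 26.3% had no overlap, and the share over all possible pairs of genes was not computed. Each of the 4 pairs holds a gene whose own counts had no overlap between the groups (Spi1, Irf4, Gata1 or Gfi1b). These ratios are therefore not independent of the results for single genes. The log2 ratio of Spi1 to Gata1, the erythroid factor that PU.1 antagonises, was 1.88, 2.50, 2.29 and 1.97 in NA MPs and between 1.47 and 1.57 in WT MPs. All 4 NA MP values exceeded those of the WT MPs, by 0.64 on average, and Gata1 itself had a log2 fold change of -0.47 (edgeR adjusted p = 7.09e-05) against 0.15 for Spi1. Gata1 is 1 of the 12 erythroid markers, of which 11 fell, and the part of erythroid cells in this ratio was not tested. The log2 ratio of Spi1 to Cebpa, the factor that opens the granulocyte and monocyte programme, was between 0.076 and 0.13 in NA MPs and between -0.17 and -0.046 in WT MPs, a difference of 0.20. Cebpa had a log2 fold change of -0.05 (edgeR adjusted p = 0.325).

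Gfi1 has a close relative, Gfi1b, which acts in erythroid and megakaryocyte cells. The log2 ratio of Gfi1 to Gfi1b was 1.92, 2.40, 2.11 and 2.24 in NA MPs and between 1.35 and 1.68 in WT MPs, a difference of 0.65, and Gfi1b fell with a log2 fold change of -0.66 (edgeR adjusted p = 3.01e-09) while Gfi1 had -0.02. The erythroid markers fell in the same samples (940 to 1193 CPM against 1759 to 1938 CPM), and their part was not tested. The log2 ratio of Irf4 to Irf8 was between -6.22 and -5.38 in NA MPs and between -9.38 and -8.18 in WT MPs, a difference of 3.14. Irf4 alone had a log2 fold change of 3.23 and Irf8 alone -0.03. The ratio of Irf8 to Gfi1, factors of the monocyte and the granulocyte branch, differed by -0.016 (exact permutation test, adjusted p = 0.873), and spanned 0.93 to 1.42 in NA MPs and 1.10 to 1.28 in WT MPs on the log2 scale. Runx2 to Runx1 (0.061), Runx3 to Runx1 (0.0056), Runx1 to Cbfb (0.056) and Zeb2 to Zeb1 (-0.29) did not pass either (exact permutation test, adjusted p of 0.531, 0.873, 0.262 and 0.171).

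**Figure D4:**
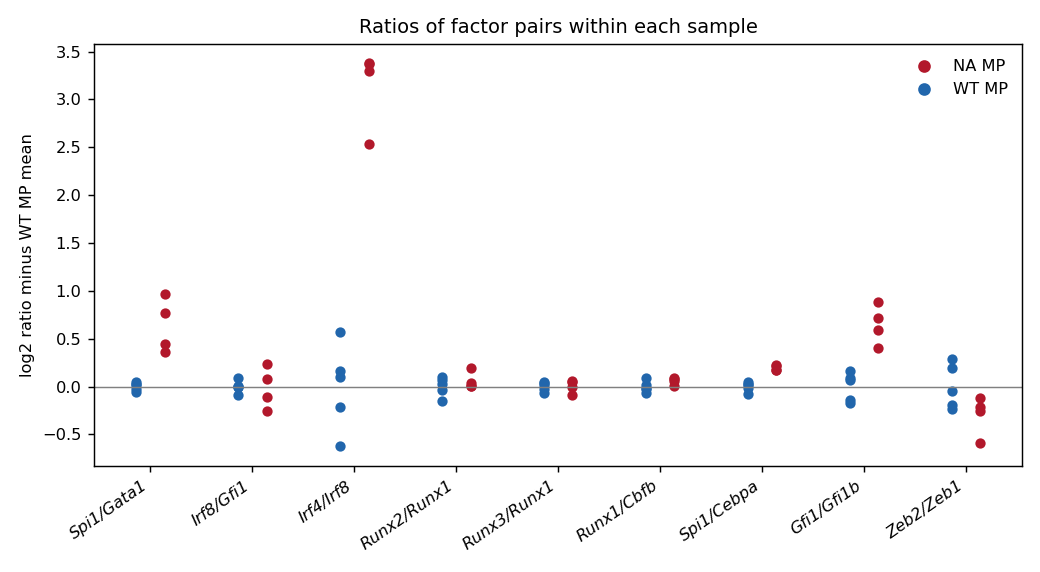
Log2 ratio of the counts of factor pairs within each sample, minus the mean of the 5 WT MP samples, for WT MPs (blue) and NA MPs (red). The pairs Spi1/Gata1, Irf4/Irf8, Spi1/Cebpa and Gfi1/Gfi1b separate the groups without overlap, whereas the other 5 pairs overlap.

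Relatives of the factors from the same families mostly rose. Of 18 relatives 17 were tested and 14 passed, 11 higher and 3 lower. Over all tested genes 17.9% were higher and 16.3% lower. The median log2 fold change of the relatives was 0.23 against -0.0013 over all tested genes. Spib (28.6 ± 12.8 normalized counts in NA MPs, n = 4, and 2.99 ± 1.58 in WT MPs, n = 5, at the limit of 3 counts), an ETS factor of B cells and plasmacytoid dendritic cells, had a log2 fold change of 3.20. The B lineage markers rose in the same samples (168 to 317 CPM in NA MPs), and their part in Spib was not tested. Spic, an ETS factor of red pulp macrophages, followed with 1.5, from 13.8 ± 3.21 normalized counts in NA MPs and 4.79 ± 3.49 in WT MPs, again near the limit. Its WT MP replicate 5, at 10.98, lay just under the lowest NA MP sample, at 11.02. The largest falls were those of Gfi1b (-0.66) and Mybl1 (-0.59), a relative of Myb. Among the interferon regulatory factors, singled out after their values were seen, Irf1 (0.28), Irf2 (0.23), Irf5 (0.44), Irf7 (0.57) and Irf9 (0.19) rose besides Irf4, and Irf3 (0.09) and Irf8 did not pass. Of the ETS genes, singled out in the same way, Ets1 (0.73), Erg (0.50), Etv6 (0.18) and Elf1 (0.11) rose and Fli1 (-0.04) did not pass. Zeb1 (0.26) did not pass, and Mybl2 (-0.11) fell.

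Of 20 cofactors 17 were tested, 6 passed and 11 did not, a share close to the 34.2% of all tested genes, and the median log2 fold change was -0.03. Those that rose were Tle4 (0.18) and Tle3 (0.16), corepressors of the Groucho family that bind Runx proteins, and those that fell were Hipk2 (-0.22), Ep300 (-0.13), the acetyltransferase that Myb recruits, Hdac2 (-0.13) and Rcor1 (-0.11). Kdm1a (0.05), the demethylase of the Gfi1 complex, did not pass.

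Genes known from other work as targets of the factors were followed as lists, and their dependence on the factors was not tested in these cells. The lists are to be read against the 34.2% of all tested genes that passed (17.9% higher and 16.3% lower). All 20 genes linked to PU.1 were tested and 15 passed, 14 higher and 1 lower, and the median log2 fold change was 0.13. Il7r, the interleukin 7 receptor of lymphoid progenitors, had 47.4 ± 7.89 normalized counts in NA MPs (n = 4) and 4.99 ± 1.22 in WT MPs (n = 5), a log2 fold change of 3.22, and the part of B lineage cells in it was not tested. Lyz2, the lysozyme of myeloid cells, had a log2 fold change of 0.55. Fcgr3, a low-affinity Fc receptor, fell with -0.57. The receptors Csf1r (0.08, edgeR adjusted p = 0.131) and Csf3r (-0.04, edgeR adjusted p = 0.341) did not pass. Of 18 genes linked to Irf8, 17 were tested and 10 passed, 7 higher and 3 lower, with a median of 0.10. Irf5 (0.44) and Ly86 (0.41), a partner of the receptor CD180, rose most, and Naip2 (-0.32), an inflammasome sensor, and Cx3cr1 (-0.23), a chemokine receptor of monocytes, fell most. Il12b was at 0 in all samples.

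Of 16 genes linked to Gfi1, 15 were tested and 9 passed, 8 higher and 1 lower (17.9% and 16.3% of all tested genes), and the median log2 fold change was 0.21. This list was drawn up from genes known to be bound and, mostly, repressed by Gfi1. It also holds Spi1, which passed, and Irf8, which did not. Klf2 (3.28) and Egr1 (2.79) rose most and Gfi1b was the one that fell. Hoxa9, which the study proposes may be a key target of NA, rose as well (2.04). It had 662 ± 45.4 normalized counts in NA MPs and 161 ± 13.5 in WT MPs. The part of the fusion in the rises of this list was not tested. The immediate early genes, to which Egr1 belongs, rose in the same samples, and their part was not tested. Of 18 genes linked to Myb or Runx proteins, 15 were tested and 11 passed, 8 higher and 3 lower, with a median of 0.08. Tcf7 (1.54), a factor of T cells and lymphoid progenitors, and Ada (0.29) rose most, and Cebpe (-0.20), a factor of late granulocytes, and Mat2a (-0.19) fell most. Lymphoid markers rose in the same samples as Tcf7, with the B lineage markers at 168 to 317 CPM against 44.2 to 46.8 CPM, and their part was not tested. Several genes stand in more than 1 of these lists, among them Csf1r, Mpeg1, Ly86 and Gfi1b.

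**Figure D5:**
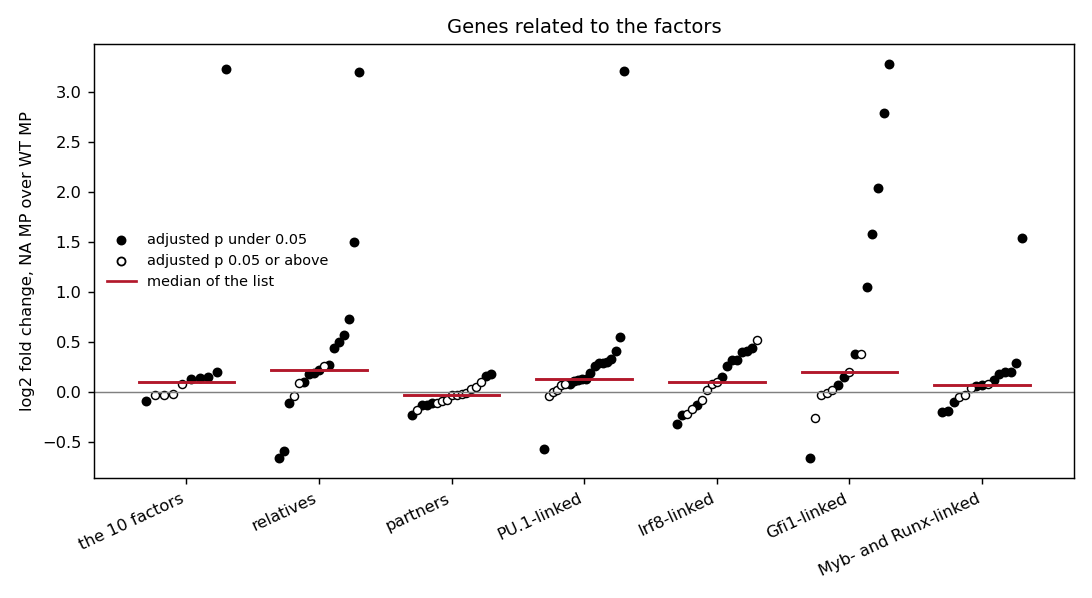
Log2 fold change of NA MPs over WT MPs for each tested gene of the 10 factors and of 6 lists of related genes, filled where the adjusted p from edgeR is under 0.05, with the median of each list in red. The cofactors (partners) stay between -0.22 and 0.18, while Irf4, Spib, Il7r and Klf2 lie above 3.

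Exons of 5 of the 10 factors (Runx1, Runx2, Myb, Gfi1 and Zeb2) overlap those of a gene on the opposite strand in GENCODE M21, such as Runx2os1 for Runx2. Whether the counting used strand is not given in the sources used here, so reads of these partners cannot be told apart from those of the factors.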

How the data were processed

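RNA of 4 NA MP and 5 WT MP samples was sequenced after polyA RNA library preparation. The deposited values are an expected count per gene from RSEM, not scaled between samples, and the submitters' processing notes name bcl2fastq, RSEM, DESeq2 and the build mm10. Their versions, the annotation and the strand setting are not given in the sources used here. Columns were matched to samples by name. Counts were rounded to whole numbers and tested in R 4.3.3 with edgeR 4.0.16 (TMM, filterByExpr with a minimum count of 10, robust quasi-likelihood test, Benjamini-Hochberg adjustment over 11966 genes), on group alone. The depth was between 6602851 and 6734284 counts per sample and the biological coefficient of variation 3.55%. The scripts were run on simulated counts with known changes first. Lengths, GC content and coordinates came from GENCODE M21 (GRCm38, the assembly of mm10), gene names from a table of Ensembl identifiers that matched 32916 genes, and promoters from RefSeq. Within-library ratios used counts plus 0.5.

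The members and gene lists were chosen with earlier results of these data known. Named are all 10 factors, the 2 largest rises and falls past the threshold in each related list, Cebpa, Gata1, Csf1r and Csf3r, the paired factors, the 3 nearest profiles of the 3 most changed factors, and markers. Hoxa9 was added after the values were seen. Replicate numbers 1 to 4 occur in both groups but belong to recipients of different grafts, so the fit with the number as a block was an alternative. Further ones were RLE or library size scaling, testing without a filter, requiring 10 counts in each sample, omitting the robust option, DESeq2 1.42.0, a threshold of 0.01, an offset for GC content and length (a trend per library), leaving out each sample, adding 1 or 0.1 in ratios, and unrounded counts, the last chosen after seeing the data. No pair of samples within a group agreed within sampling noise (chi-square over its degrees of freedom 1.14 to 2.64).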

Additional observations from a re-analysis of the deposited data

Results flagged for a closer look

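A sample stood far from the others of its group in 2 of the 38 groups of values checked, where chance gives about 1.9 (1 in 20). In Runx2, WT MP replicate 5 had a normalized count of 528 against 481 to 489 in the other WT MPs. In the log2 ratio of Irf4 to Irf8, NA MP replicate 1 stood at -6.22 against -5.46 to -5.38 in the other NA MPs.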

How the results depend on the processing

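Of the 10 factors, 6 passed under every alternative except requiring at least 10 counts in every sample (5), which leaves Irf4 untested, and leaving out NA MP replicate 2 (7). Leaving out a sample gave 6 to 7. The 6 were not always the same genes, since with the offset for GC content and length Runx3 (0.046) and Myb (-0.037) dropped out and Cbfb (0.11) and Gfi1 (-0.092) came in. The cause was not tested. Spi1, Runx1 and Runx2 passed under all 19 alternatives, and Irf4 under the 18 that tested it. Over all genes between 2876 and 4299 passed. At a threshold of 0.01 the cofactors past it went from 6 to 3. Factors that missed the threshold changed sign in places, Irf8 without NA MP replicate 1 (range with each sample left out -0.085 to 0.047), Gfi1 without NA MP replicate 3 (range -0.037 to 0.0055), and Zeb2 without NA MP replicate 2 (range -0.067 to 0.0088) and with the offset for GC content and length (0.037). The ratio of Irf8 to Gfi1 ran from -0.098 to 0.065 and that of Runx3 to Runx1 from -0.013 to 0.037 with a sample left out. Of the 9 pairs, 0 passed after leaving out any sample (0 to 0 against 4). The 4 pairs then stood at the smallest p that the remaining samples allow. With only 4 of 9 pairs there, this gave an adjusted p of 0.0643 or 0.0804 (exact permutation test), so these fits could not repeat the calls. The differences of the 4 pairs kept their sign.

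The replicate block could only use numbers 1 to 4 and so left out WT MP replicate 5. With the block 6 factors and 3674 of all 11900 tested genes passed, against 3681 of 11900 without WT MP replicate 5 and with no block, and no call among the factors changed. Samples with the same number did not deviate together (correlation of deviations from -0.024 to 0.056). Depth limits the size of the change for genes near 0 in WT MPs, such as Irf4 (2.99 to 6.99 normalized counts) and Spib (0.998 to 4.99).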
